A study of Mus musculus with 8 samples.

Results

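Gene expression of dark zone germinal centre B cells was compared between cells labelled as lacking both Bach2 and Prdm1 and cells labelled as lacking Prdm1 alone. The comparison covered the 10610 of 23234 genes that reached 1 FPKM (fragments per kilobase, relative to all mapped fragments) in 2 or more of the 8 libraries of the study, 4 of which were dark zone libraries. The last gene inside this limit was Mia1, whose second-highest value was 1.00032 FPKM, and the first outside it was Tcte3 at 0.99673 FPKM.

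All donor B cells were on the C57BL/6 background and carried floxed Prdm1 on both alleles, Prdm1(f/f), a tamoxifen-inducible recombinase, ERT2cre(KI/+), and B1-8hi(KI/+), a knock-in antigen receptor that binds the hapten NP. The control cells, called sKO here, were Bach2(+/+), and the cells called dKO were Bach2(f/f); both names stand for the labels. Naive B cells of each genotype were given to wild-type CD45.1/45.2 mice, which kept lymphocytes of their own, and tamoxifen at 3 mg was given for 3 days before immunization with NP-CGG in alum. On day 10, NP-binding GL7+CD38- donor cells that were CD86 low and CXCR4 high were sorted as dark zone (DZ) cells, and CD86 high, CXCR4 low cells as light zone (LZ) cells, from the pooled spleen cells of 5 recipients. RNA of about 30000 cells went into each library. Each genotype had 2 DZ and 2 LZ libraries, and both genotypes carried the Prdm1 deletion by label, so cells with intact Prdm1 enter no comparison. The labels do not say whether the 2 libraries of a group were drawn from different pools, and p-values then measure only how far these libraries spread, which may be technical.

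BACH2 is a transcriptional repressor of the BTB and bZIP families that pairs with small MAF proteins at DNA elements related to the AP-1 site. In B cells it restrains Prdm1, which encodes the plasma cell factor Blimp-1, and it is needed for germinal centres. In the dark zone, germinal centre B cells divide and mutate their antibody genes, and in the light zone they take up antigen, present it on MHC class II to T follicular helper cells and receive B cell receptor and CD40 signals that switch on MYC and NF-kB targets.

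Differences are given on the log2(FPKM + 1) scale as dKO minus sKO ± standard error, which understates the change of low genes, and adjusted p-values come from limma with Benjamini-Hochberg adjustment over the 10610 genes. A gene is said to have risen or fallen where its adjusted p was under 0.05. In bulk RNA of this kind, fewer cells of a type and less RNA per cell cannot be told apart.

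The DZ libraries differed little in depth and make-up. FPKM values summed to 502214 to 540885 over the 8 libraries, and 10192 to 10250 genes reached 1 FPKM in each. Read depth is not known, but the steps between low values put the 4 DZ libraries within a ratio of 0.946 to 1.15 of each other. The sorted cells had the dark zone pattern: in sKO, Cxcr4, Foxo1 and Polh were lower in LZ than in DZ (differences of -0.82, -0.51 and -1.25, adjusted p of 0.000201 to 0.00479), and Cd86, Cd83 and Nfkbia were higher in LZ (1.40, 1.80 and 0.92, adjusted p of 4e-05 to 0.026). Markers of other cells were low in the DZ libraries: 22 myeloid genes summed to 15.6 to 19.1 FPKM, 9 NK cell genes to 0.188 to 0.635 FPKM and 15 T cell genes, of which Cd2 was the most abundant, to 103 to 117 FPKM, while 7 B cell markers summed to 2820 to 3380 FPKM. Cd3e, C1qa and Ncr1 were at 0 in all 4 DZ libraries. The LZ libraries were less even. Their myeloid genes summed to 28 and 80.8 FPKM in sKO LZ and to 41.5 and 177 FPKM in dKO LZ. The NK cell genes summed to 0.356 and 1.69 FPKM in sKO LZ and to 0.303 and 3.4 FPKM in dKO LZ. One library stood apart in its immediate-early genes. Fos read 219 FPKM in sKO DZ replicate 1 against 66.0 FPKM in sKO DZ replicate 2 and 91.5 and 99.8 FPKM in the dKO DZ libraries. Fosb (69.7, 10.4, 17.4 and 24.8 FPKM in the same order), Klf2 (11.3, 3.49, 4.38 and 4.07 FPKM) and Rgs1 (31.4, 3.93, 3.95 and 6.92 FPKM) had the same library highest. On the FPKM + 1 scale, 23 genes were over 2 times as high and 10 over 2 times as low in sKO DZ replicate 1 as in replicate 2, against 8 and 6 genes between dKO DZ replicates 1 and 2. For many of the gene lists, counts of calls are also given without sKO DZ replicate 1.

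Bach2 RNA was higher in the cells labelled Bach2(f/f). The gene read 76.2 and 74.6 FPKM in the sKO DZ libraries and 96.2 and 94.5 FPKM in the dKO DZ libraries, a rise of 0.33 ± 0.044 (adjusted p = 0.00894; 0.0763 and 0.0679 without dKO DZ replicates 1 and 2). Both dKO values lay above both sKO values. The deposited value covers the whole gene and the sources used here name neither the floxed exons nor the promoter that drives the recombinase, so it does not check the deletion. Prdm1 lay below the filter, at 0.0473 and 0.122 FPKM in sKO DZ and 0.258 and 0.434 FPKM in dKO DZ, and was not tested.

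In DZ cells 1258 of the 10610 genes passed the threshold (11.9%), of which 703 were higher in dKO (6.63%) and 555 were lower (5.23%). Most changes were small. Among the calls the median rise was 0.31 and the median fall was -0.35, 23 genes rose and 11 genes fell by 1 or more, and the median difference of all genes tested was 0.01. A total of 2978 genes had an unadjusted p under 0.05. Fewer genes passed when any 1 DZ library or either dKO LZ library was left out, and the fewest passed without either dKO DZ library. The balance of directions was not stable: without sKO DZ replicate 1 there were 179 rises and 199 falls, and with upper quartile scaling 620 and 651. A fit without 1 library keeps a lone library in its group and has fewer degrees of freedom. A drop in calls therefore does not show which library the effect rests on. With only the 4 DZ libraries in the fit, 649 genes passed, 339 higher and 310 lower. Of the genes tested, 15 reached the filter through the 2 dKO DZ libraries alone and 14 through the 2 sKO DZ libraries alone, so they could enter only by being high in that group.

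**Figure D1:**
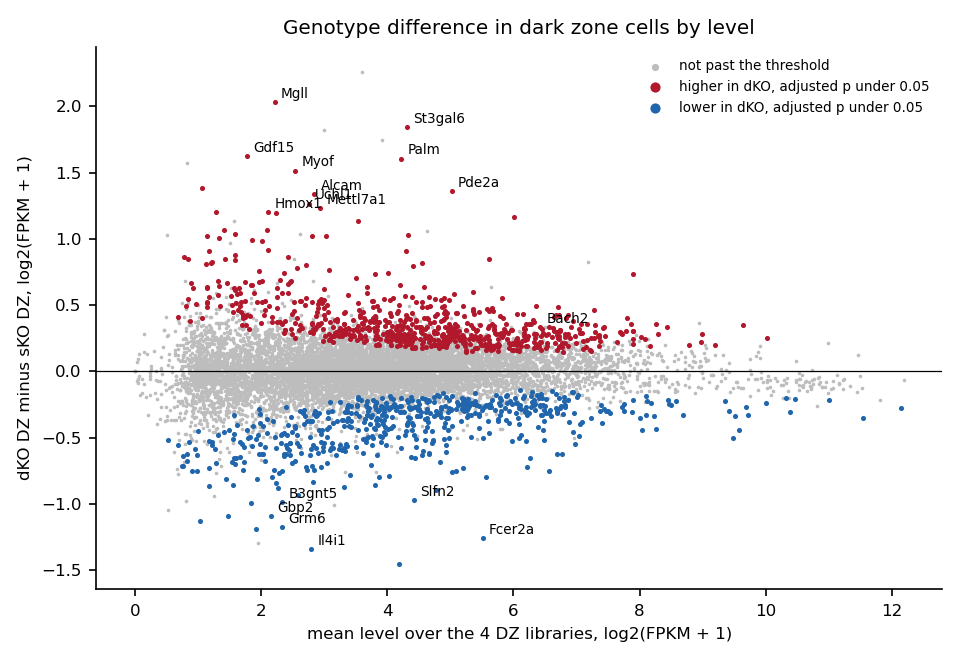
Each point is 1 of 10451 genes tested, with 159 small RNA genes left out; the horizontal axis is the mean level over the 4 DZ libraries and the vertical axis is the dKO minus sKO difference, both on the log2(FPKM + 1) scale. Red points rose and blue points fell at an adjusted p under 0.05; most of the coloured points lie within 0.5 of 0, Mgll (2.03) and St3gal6 (1.84) are the highest labelled points, and large points without a label were outside the limits on level or name used to rank genes or further down the ranking.

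The largest rises were ranked among 593 genes that passed, reached 5 FPKM in the dKO DZ mean and did not overlap between the genotypes; over all genes tested, 32.3% had both dKO DZ values above both sKO DZ values. The 25 highest rose by 0.74 to 2.03. They included genes of lipid handling and secretion, membrane proteins, signalling phosphatases and transcription factors. Mgll, the lipase that breaks down monoacylglycerols, rose the most of the 25, from 1.26 and 1.33 FPKM in sKO to 9.04 and 7.79 FPKM in dKO (2.03 ± 0.095, adjusted p = 0.000299). Cd36, a scavenger receptor that takes up fatty acids, rose from 6.90 and 6.72 to 16.0 and 16.2 FPKM (1.13 ± 0.047, adjusted p = 0.000201). Sepp1, the secreted selenium carrier selenoprotein P, rose from 43.2 and 41.2 to 95.0 and 96.1 FPKM (1.16 ± 0.054, adjusted p = 0.000299). In each of these 3 genes the replicates lay close together and the genotypes were over 2 times apart. Gdf15, a secreted stress cytokine of the TGF-beta family, read 0.731 and 1.22 FPKM in sKO and 5.2 and 4.87 FPKM in dKO (1.62 ± 0.22, adjusted p = 0.00996).

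Several of the 25 encode proteins of the cell surface and of the membrane. St3gal6, a sialyltransferase that caps glycans with sialic acid, rose from 9.90 and 9.18 to 36.8 and 36.8 FPKM (1.84 ± 0.048, adjusted p = 2.48e-05), the smallest adjusted p of the 25. Palm, a lipid-anchored protein of the plasma membrane, rose from 9.40 and 10.0 to 33.1 and 30.2 FPKM, and Myof, a ferlin of membrane repair, from 2.60 and 2.29 to 8.81 and 8.85 FPKM. The adhesion molecule Alcam rose from 3.62 and 3.44 to 10.3 and 10.6 FPKM. For these 4 genes the lowest dKO library was more than 2 times the highest sKO library. Lgals1, a secreted galectin, and Slpi, a secreted protease inhibitor, rose by 0.80 ± 0.10 and 0.77 ± 0.090.

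Signalling and nuclear genes among the 25 changed by about 2 times in FPKM. Pde2a, which degrades cyclic nucleotides, rose from 19.7 and 18.8 to 51.0 and 51.0 FPKM, and Dusp5, a nuclear phosphatase of ERK, from 12.5 and 13.5 to 28.0 and 27.1 FPKM (1.03 ± 0.070, adjusted p = 0.00155). Tox and Tox2, HMG-box transcription factors, read 3.71 and 3.37, and 4.53 and 4.92 FPKM in sKO. In dKO they read 7.04 and 6.5, and 10.5 and 10.7 FPKM. The gene of the cell death inducer BIM, Bcl2l11, rose from 13 and 13.8 to 26.2 and 25.9 FPKM (0.91 ± 0.064, adjusted p = 0.00155). The cyclin-dependent kinases Cdk6 (0.86 ± 0.099) and Cdk14 (0.74 ± 0.079) also rose. Uchl1 (a deubiquitinase), Mettl7a1, Hmox1, Rbm44, Coro2b, Creg1, Gcsh (a subunit of the glycine cleavage system) and Rps4y2 completed the 25; Rps4y2 is a near copy of a ribosomal protein gene, and its value is uncertain where reads could be split. When each of the 8 libraries was left out in turn, 16 of the 25 calls were kept. Gdf15, Mettl7a1, Rps4y2, Cdk6, Gcsh, Lgals1, Tox and Cdk14 lost theirs without dKO DZ replicate 1, Gdf15, Mettl7a1, Lgals1, Tox, Slpi and Cdk14 without dKO DZ replicate 2, and Gdf15 and Gcsh without sKO DZ replicate 1 (adjusted p of 0.0509 to 0.0749).

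The largest falls were ranked among 442 genes by the same limits, and 26.3% of all genes tested had both dKO DZ values below both sKO DZ values. The 25 lowest fell by -0.72 to -1.34. Il4i1, a secreted amino acid oxidase induced by IL-4 and CD40, had the largest fall of the 25, from 10.6 and 9.53 to 3.09 and 3.67 FPKM (-1.34 ± 0.091, adjusted p = 0.00154). Fcer2a, the low-affinity IgE receptor CD23, fell from 68.8 and 70.9 to 28.0 and 29.2 FPKM (-1.26 ± 0.050, adjusted p = 0.000157). Gbp2, an interferon-inducible GTPase, fell from 5.36 and 5.63 to 1.77 and 2.35 FPKM (-1.09 ± 0.11, adjusted p = 0.00541). In each of these 3 genes the higher dKO library was less than 50% of the lower sKO library.

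The other large falls came from genes of growth arrest, signalling, glycan synthesis and DNA repair. Slfn2, a schlafen that holds lymphocytes in quiescence, fell from 27.5 and 30.4 to 14.1 and 14.5 FPKM (-0.97 ± 0.11, adjusted p = 0.00584), and Cdkn1b, the cyclin-dependent kinase inhibitor p27, from 8.79 and 7.71 to 4.10 and 4.96 FPKM (-0.74 ± 0.10, adjusted p = 0.00996). Dusp4, another ERK phosphatase, fell from 7.52 and 7 to 3.52 and 3.16 FPKM, opposite in direction to Dusp5. Notch2, the receptor needed for marginal zone B cells, fell from 5.02 and 5.64 to 2.53 and 2.54 FPKM (-0.84 ± 0.079, adjusted p = 0.00439). Shisa5 (121 and 122 FPKM in sKO, 72.0 and 71.4 FPKM in dKO) and Litaf (12 and 12.8, then 6.29 and 6.42 FPKM) fell with little spread between replicates (-0.75 ± 0.038 and -0.87 ± 0.055). B3gnt5, which extends glycolipids, Polm, a DNA polymerase of end joining, Id2, an inhibitor of E proteins, and Fscn1, an actin-bundling protein, fell by -0.99, -0.80, -0.78 and -0.75. The remaining members were Grm6, Gimap3, Gstt1, Trim7, Kifap3, St14, Csprs, Gpr171, Cyp27a1, H2-Oa, Ms4a4c and Kynu. Leaving out 1 library at a time, 14 of the 25 calls were kept. Slfn2, Gstt1, Polm, Id2, Fscn1, Cdkn1b, Gpr171, Cyp27a1, Ms4a4c and Kynu lost theirs without dKO DZ replicate 1, and 9 genes, these without Polm and Cdkn1b but with St14, without dKO DZ replicate 2. Gstt1, Id2, Cdkn1b, Gpr171 and Ms4a4c lost theirs without sKO DZ replicate 1, Gstt1, Gpr171, Cyp27a1 and Ms4a4c without sKO DZ replicate 2, and Id2 without either dKO LZ library (adjusted p of 0.0502 to 0.195).

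**Figure D2:**
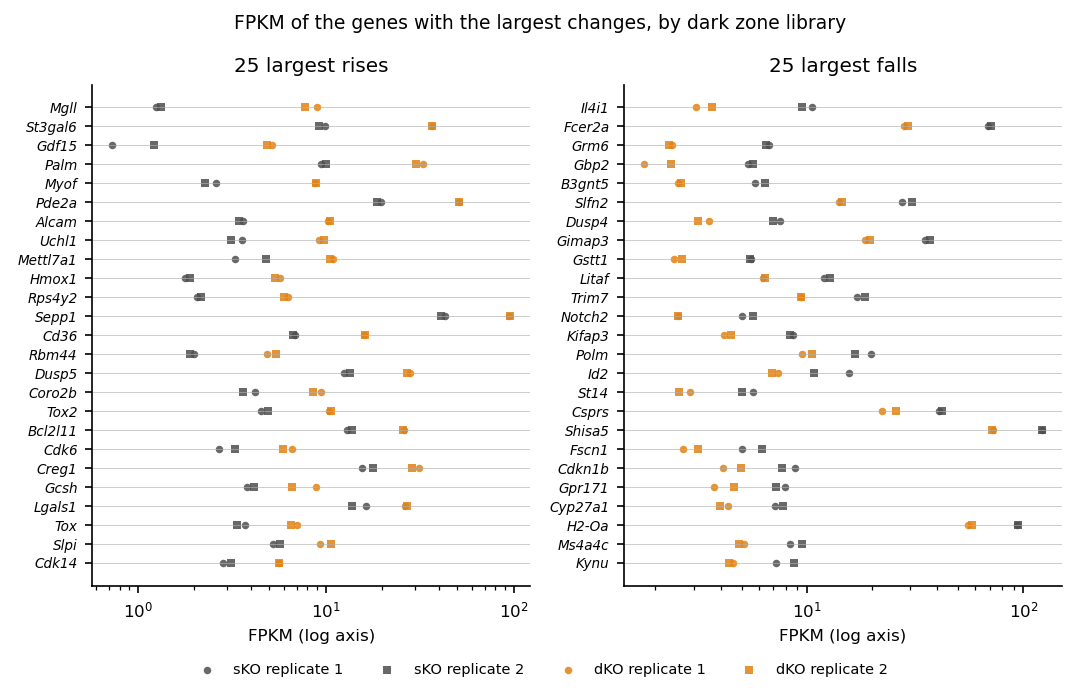
FPKM of the 25 largest rises (left) and 25 largest falls (right) in each DZ library, on a log axis; grey symbols are the 2 sKO libraries and orange symbols the 2 dKO libraries. The genotypes do not overlap in any gene, as the ranking required, and the gap is widest for Mgll on the left and Il4i1 on the right.

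The promoters of these genes were searched for an E-box that MYC and related factors bind, CACGTG, the AP-1 site TGAGTCA, and the longer element that BACH and MAF pairs bind, which is the AP-1 site with TGC directly before it, on both strands. Promoter entries of 300 bases, 250 before to 50 after the annotated start, were taken from RefSeq on GRCm38.p6 and matched 8404 of the 10610 genes. CACGTG was in 8.09% of the 27025 genes with a promoter entry, 12.2% of the genes tested, 18.6% of the genes that rose (103 of 554) and 9.57% of the genes that fell (42 of 439). TGAGTCA was in 5.95%, 3.99%, 3.25% (18 of 554) and 5.69% (25 of 439) of the same sets. The longer element was in 0.167% of all entries and in 1 of 554 genes that rose, the unnamed gene 5830416P10Rik (chosen after its value was seen), and in 0 of 439 that fell. A match describes the letters of the window and is not a measured site.

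Among the 25 largest rises, 20 had a promoter entry, and 4 of these held CACGTG and 0 held TGAGTCA; among the 25 largest falls, 20 had an entry, and 0 held CACGTG and 2 held TGAGTCA. The windows that held them are shown because they belong to the genes with the largest changes, with the match in capitals. Positions are bases before the start at -1, and Prdx1, an antioxidant gene described below, is added because its entry holds the AP-1 letters at 2 places.
Mgll, chr6:88724343-88724398, plus strand, match from -44: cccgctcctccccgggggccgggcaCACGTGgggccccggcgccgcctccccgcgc
Gdf15, chr8:70632148-70632203, minus strand, match from -83: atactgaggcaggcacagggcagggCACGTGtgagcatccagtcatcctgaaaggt
Cdk6, chr5:3343648-3343703, plus strand, match from -220: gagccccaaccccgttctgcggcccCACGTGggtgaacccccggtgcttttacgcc
Slpi, chr2:164356623-164356678, minus strand, match from -146: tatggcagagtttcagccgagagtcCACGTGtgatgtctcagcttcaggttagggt
Fcer2a, chr8:3690892-3690948, minus strand, reverse complement from -62: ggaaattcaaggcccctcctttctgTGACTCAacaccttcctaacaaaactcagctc
Gbp2, chr3:142620536-142620592, plus strand, match from -102: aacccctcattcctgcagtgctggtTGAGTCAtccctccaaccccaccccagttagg
Prdx1, chr4:116685349-116685393, plus strand, reverse complement from -237: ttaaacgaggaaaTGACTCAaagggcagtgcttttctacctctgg
Prdx1, chr4:116685443-116685499, plus strand, match from -131: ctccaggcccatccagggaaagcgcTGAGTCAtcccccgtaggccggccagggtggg

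Heme and antioxidant genes, whose enhancers BACH proteins are known to occupy through MAF elements, rose in part. Of 18 members tested of this list, 6 rose and 0 fell (33.3%, against 6.63% of all genes that rose), with a list median of 0.08. Without sKO DZ replicate 1 there were 4 rises, and without dKO DZ replicates 1 and 2 there was 1 in each fit. Hmox1, the heme-degrading enzyme and a classic BACH1 target, rose from 1.79 and 1.91 FPKM to 5.70 and 5.40 FPKM (1.20 ± 0.083, adjusted p = 0.00155), so that both dKO values were near 3 times the sKO values. Txnrd1, thioredoxin reductase, rose from 19.9 and 19.8 to 30.2 and 29.3 FPKM (0.56 ± 0.062, adjusted p = 0.00604). The glutamate-cysteine ligase subunits Gclc (0.55 ± 0.092) and Gclm (0.38 ± 0.075), the transferrin receptor Tfrc (0.39 ± 0.054) and the peroxiredoxin Prdx1 (0.29 ± 0.037) rose less. The ferritin chains Fth1 (931 and 1030 FPKM in sKO, 987 and 964 FPKM in dKO) and Ftl1 (393 and 414, then 380 and 377 FPKM) were not past the threshold (adjusted p = 0.985 and 0.261). Of 8 BACH, MAF and NRF factors tested, Bach2 and Bach1 rose, Bach1 from 2.02 and 1.70 to 2.91 and 2.67 FPKM (0.41 ± 0.097, adjusted p = 0.0443). Hmox1 alone of these 8 calls was kept without any 1 library. Without either dKO DZ library the other 7 were lost, without either sKO DZ library Gclm, Gclc and Bach1, and without any LZ library Bach1 (adjusted p of 0.051 to 0.217), and Bach1 was also lost with the replicate number as a block (0.0565).

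Genes that build ribosomes made up the list with the largest share of rises. Of 48 MYC targets and ribosome biogenesis genes tested, 35 rose (72.9%, against 6.63% of all genes) and 0 fell, and their median difference was 0.36. Nolc1, a nucleolar scaffold, rose from 24.4 and 23.0 to 36.2 and 34.3 FPKM (0.55 ± 0.046, adjusted p = 0.00294). Nop2, a ribosomal RNA methyltransferase, rose from 16.9 and 17.7 to 26.0 and 24.7 FPKM (0.53 ± 0.050, adjusted p = 0.00455). Mybbp1a (0.42 ± 0.032) and the helicase Ddx21 (0.36 ± 0.034) rose with them. Without sKO DZ replicates 1 and 2 the list had 20 and 31 rises, and without dKO DZ replicates 1 and 2 it had 8 and 6, while its median stayed between 0.33 and 0.39; the calls of Nolc1, Nop2, Mybbp1a and Ddx21 were kept with any 1 of the 8 libraries left out. Myc itself was not past the threshold. It read 27.4 and 14.4 FPKM in the sKO DZ libraries and 28.1 and 28.4 FPKM in the dKO DZ libraries (0.48 ± 0.27, adjusted p = 0.298), so 1 sKO library was at the dKO level and the other was at about 50% of it; without sKO DZ replicate 1 the difference was 0.92 (adjusted p = 0.0383). The ribosomal proteins did not rise with the biogenesis genes: of 42 tested, 0 rose and 0 fell, with a median of -0.08. Their small differences leaned down, with 5 of the 42 above 0. In 27 of them both dKO DZ values lay below both sKO DZ values, and in 2 both lay above. Over all genes tested these shares were 26.3% and 32.3%.

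Enzymes that supply amino acids, one-carbon units and nucleotides rose in part. Srm, which makes spermidine, read 16.7 and 19.6 FPKM in sKO and 28.3 and 29.2 FPKM in dKO (0.64 ± 0.093, adjusted p = 0.0119). Of 27 genes of amino acid supply under mTORC1 and ATF4, 9 rose and 1 fell (median 0.13), of 20 aminoacyl-tRNA synthetases 7 rose and 0 fell (median 0.18), and of 23 nucleotide synthesis genes 10 rose and 0 fell (median 0.18). The shares called were 37%, 35% and 43.5%, against 11.9% of all genes. Slc7a5, the large neutral amino acid transporter, rose from 14.1 and 15.8 to 22.9 and 22.3 FPKM (0.57 ± 0.059, adjusted p = 0.00537). The folate enzymes Mthfd1 (0.52), Shmt2 (0.49) and Shmt1 (0.49), the purine enzymes Gart (0.47) and Atic (0.48) and the pyrimidine enzymes Cad (0.53) and Umps (0.37) rose by similar amounts. Among the synthetases Mars, Eprs, Tars and Iars rose by 0.29 to 0.36. Ddit4, an inhibitor of mTORC1, was the 1 member that fell, from 8.80 and 7.47 to 6.19 and 5.26 FPKM (-0.44 ± 0.10, adjusted p = 0.0416). Without dKO DZ replicates 1 and 2 in turn, the rises were 0 and 2 for amino acid supply, 1 and 0 for the synthetases and 2 and 2 for nucleotide synthesis, and without sKO DZ replicate 1 they were 3, 2 and 4. The calls of Gart and Cad were kept with any 1 library left out. Of the 14 calls named here, 11 were lost without dKO DZ replicate 1, 10 without dKO DZ replicate 2 and 5 without sKO DZ replicate 1, and that of Ddit4 was also lost without sKO DZ replicate 2 or either dKO LZ library (adjusted p of 0.0508 to 0.193).

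Glycolysis, sterol synthesis and protein folding genes rose in part. Of 20 glycolysis genes 6 rose and 0 fell (median 0.19), of 30 cholesterol and fatty acid synthesis genes 12 rose and 0 fell (median 0.20), and of 19 cytosolic chaperonin and heat shock genes 9 rose and 0 fell (median 0.25). The shares that rose were 30%, 40% and 47.4%, against 6.63% of all genes. Aldoa, the glycolytic aldolase, rose from 173 and 194 to 304 and 306 FPKM (0.73 ± 0.059, adjusted p = 0.00259), with both dKO libraries over 1.5 times both sKO libraries. Tpi1, the lactate dehydrogenase gene Ldha and the lactate transporter Slc16a1 rose by 0.35, 0.30 and 0.38. Scd2, a fatty acid desaturase, rose from 33.1 and 35.5 to 47.2 and 47.4 FPKM (0.45 ± 0.046, adjusted p = 0.00499), and Idi1 and Acaca rose by 0.45 and 0.40. The chaperonin subunits Cct6a (0.43) and Cct3 (0.29), the mitochondrial chaperone Hspa9 (0.43) and Hsp90aa1 (0.36) rose. Of 51 respiratory chain genes 49 were not called (median 0.07). The 3.92% called was below the 11.9% of all genes. Cycs, the electron carrier cytochrome c, rose by 0.27 and Ndufa6, a subunit of complex I, fell by 0.20. Both were named after their values were seen. In turn without dKO DZ replicates 1 and 2, 1 and 1 glycolysis genes, 1 and 0 sterol and fatty acid genes and 1 and 1 chaperone genes rose, and without sKO DZ replicate 1 the rises were 1, 3 and 5. The call of Aldoa was kept with any 1 library left out. Of the 13 calls named, 11 were lost without either dKO DZ library, 6 and 3 without sKO DZ replicates 1 and 2, 4 without either dKO LZ library, and that of Ndufa6 also without either sKO LZ library (adjusted p of 0.051 to 0.235).

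**Figure D3:**
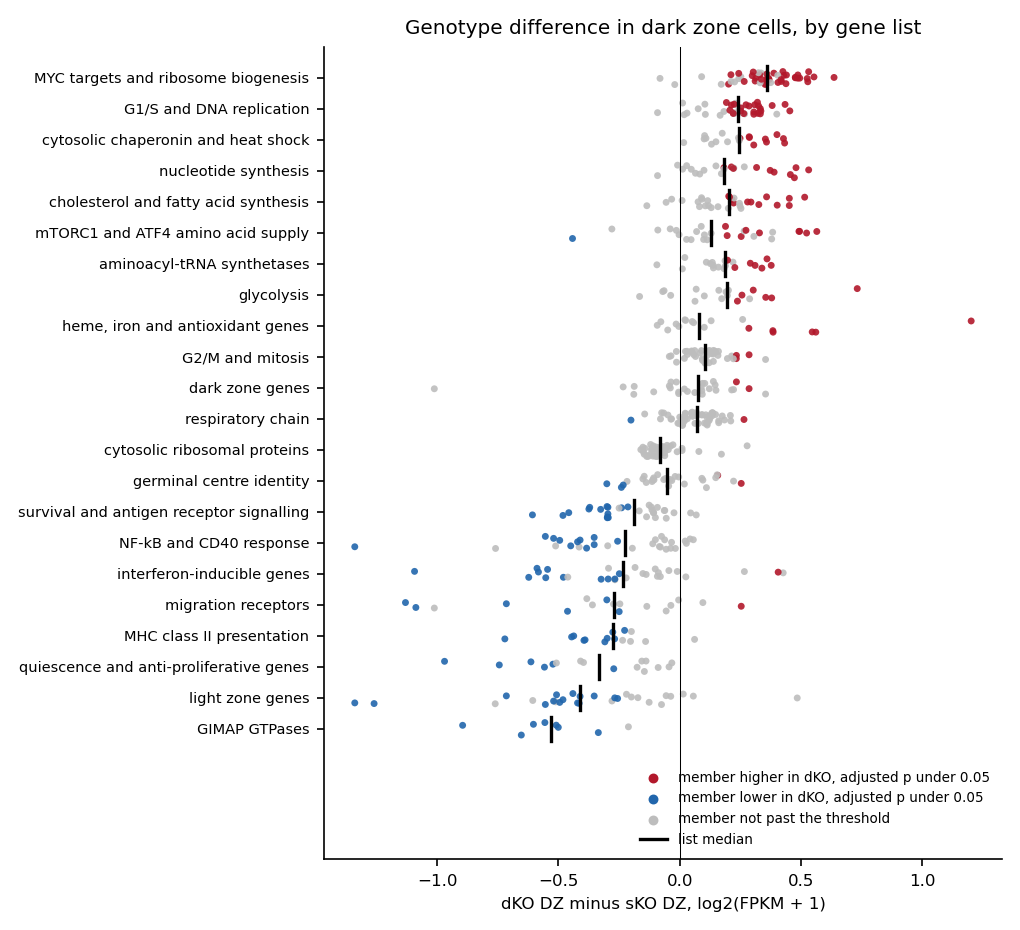
Each point is 1 tested member of a gene list, by its dKO minus sKO difference in DZ on the log2(FPKM + 1) scale; red points rose, blue points fell, grey points were not past the adjusted p of 0.05, and the black bar is the list median. The medians run from 0.36 for MYC targets and ribosome biogenesis to -0.53 for GIMAP GTPases.

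Of 40 genes of the G1/S transition and DNA replication, 23 rose and 0 fell (57.5%; median 0.24). Of 40 genes of G2/M and mitosis 3 rose and 0 fell (7.5%, median 0.11), a share near the 6.63% of all genes that rose. Their small differences leaned up, with 36 of the 40 above 0. In 30 of them both dKO DZ values lay above both sKO DZ values and in 0 both lay below, against 32.3% and 26.3% of all genes. The difference between the lists was not tested. Uhrf1, which guides DNA methylation to new strands, rose from 106 and 108 to 138 and 143 FPKM (0.38 ± 0.047, adjusted p = 0.0081). The helicase subunits Mcm6 and Mcm5 rose by 0.31 and 0.33, and the maintenance methyltransferase Dnmt1 by 0.27. The 3 mitotic genes were Top2a (0.29), Bub1 (0.23) and Anln (0.23), and the division marker Mki67 read 215 and 218 FPKM in sKO and 224 and 242 FPKM in dKO (adjusted p = 0.251). Among 11 D cyclins, their kinases and inhibitors, Cdk6 and Cdk4 (0.30 ± 0.047) rose and Cdkn1b fell (27.3% called, against 11.9% of all genes). Ccnd3, the D cyclin of germinal centre B cells, read 167, 197, 172 and 176 FPKM (adjusted p = 0.727 by limma). Of 16 quiescence genes, 6 fell and 0 rose (37.5%, against 5.23% of all genes that fell). The 6 were Slfn2, Cdkn1b, the MYC antagonist Mxd4 (-0.61 ± 0.088), the anti-proliferative genes Btg1 (-0.52 ± 0.080) and Btg2 (-0.27 ± 0.041), and Pdcd4 (-0.56 ± 0.097). Fewer G1/S genes passed without any 1 DZ library, while the list median stayed between 0.24 and 0.26. Such a fit keeps a lone library in its group, so the lost calls do not show which library the effect rests on. Mitotic rises numbered 0 without any 1 DZ library. Without sKO DZ replicate 1 the quiescence list had 3 falls and its median of -0.33 became -0.14, and without dKO DZ replicates 1 and 2 it had 0 and 1 falls. Of the 15 calls named here, 15 were lost without dKO DZ replicate 1, 13 without dKO DZ replicate 2, 8 and 5 without sKO DZ replicates 1 and 2, 3 without either dKO LZ library and that of Anln without either sKO LZ library (adjusted p of 0.0506 to 0.208).

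Several genes that define germinal centre and dark zone cells were not past the threshold. Bcl6, the germinal centre factor, read 126 and 122 FPKM in sKO and 120 and 118 FPKM in dKO (adjusted p = 0.502). Cxcr4 read 131, 137, 129 and 139 FPKM and Foxo1 47.6, 44.4, 47.4 and 44.3 FPKM (adjusted p = 0.974 and 0.985). For Cxcr4 and Foxo1 the genotypes overlapped, while for Bcl6 both dKO values lay below both sKO values without passing the test. Of 28 germinal centre genes 5 were called (17.9%, against 11.9% of all genes). S1pr2, the receptor that keeps cells in the follicle (0.25 ± 0.048), and Mef2c (0.16 ± 0.035) rose, and Spib (-0.24 ± 0.040), Rgs13 (-0.30 ± 0.059) and Bcl11a (-0.23 ± 0.054) fell. Of 28 dark zone genes 2 rose (Top2a and Bub1) and 0 fell, which at 7.14% is near the 6.63% of all genes that rose. In 16 of the 28 both dKO DZ values lay above both sKO DZ values and in 3 both lay below, against 32.3% and 26.3% of all genes. Of 25 genes of antibody mutation and its repair 7 rose and 0 fell (28%), among them Msh6 (0.31), Rpa2 (0.32), Exo1 (0.30) and Ung, the glycosylase that removes uracil, which read 22, 23.8, 32.4 and 30.1 FPKM (0.43 ± 0.062). Germinal centre genes had 0 rises and 2 falls without sKO DZ replicate 1 and 0 calls without either dKO DZ library. Repair gene rises numbered 0 and 1 without dKO DZ replicates 1 and 2 and 1 without sKO DZ replicate 1, and 0 dark zone genes rose without any 1 DZ library. Of the 11 calls named among these lists, 11 were lost without dKO DZ replicate 1, 10 without dKO DZ replicate 2, 9 and 5 without sKO DZ replicates 1 and 2, 6 without either dKO LZ library and that of Bcl11a without either sKO LZ library (adjusted p of 0.0531 to 0.21).

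Of 29 light zone genes, measured here in dark zone cells, 15 fell and 0 rose (51.7%, against 5.23% of all genes that fell), with a median of -0.41. Besides Il4i1 and Fcer2a, the activation marker Cd83 fell from 94.6 and 98.3 to 72.2 and 71.4 FPKM (-0.42 ± 0.058, adjusted p = 0.0101). Cd72, an inhibitory co-receptor, fell from 83.2 and 79.7 to 62.1 and 54.3 FPKM (-0.48 ± 0.065, adjusted p = 0.00951). Cd86, the marker of the sort, read 34.8 and 38.4 FPKM in sKO and 31.2 and 32.2 FPKM in dKO and was not past the threshold (-0.20 ± 0.079, adjusted p = 0.162). Of 30 NF-kB and CD40 response genes 11 fell and 0 rose (median -0.22), including the NF-kB subunit Nfkb2 (-0.45 ± 0.047), the inhibitor Nfkbie (-0.35 ± 0.040), the adaptor Traf1 (-0.26 ± 0.047) and Birc3 (-0.35 ± 0.039). Slamf1 (-0.27), Ebi3 (-0.41) and Cd52 (-0.44) fell as well. Irf4, a factor of plasma cells and of activation, read 4.05, 3.01, 1.99 and 2.35 FPKM (-0.51 ± 0.12, adjusted p = 0.0417). Batf, a partner of IRF4 and the 1 of 8 AP-1 genes called, fell from 11.2 and 11.1 to 8.45 and 7.79 FPKM (-0.41 ± 0.054, adjusted p = 0.00891). That share of the AP-1 genes, 12.5%, was near the 11.9% called over all genes. Without dKO DZ replicates 1 and 2 the light zone falls numbered 4 and 3 and the NF-kB falls 2 and 2, and without sKO DZ replicate 1 they numbered 6 and 5, while 1 light zone gene, Myc, then rose. The calls of Il4i1, Fcer2a and Nfkb2 were kept with any 1 library left out. Of the 13 falls named, 8 and 9 were lost without dKO DZ replicates 1 and 2, 5 and 3 without sKO DZ replicates 1 and 2, 3 without either dKO LZ library, and those of Irf4 and Ebi3 also without either sKO LZ library (adjusted p of 0.0532 to 0.208).

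The antigen receptor response list was split: of 21 members, Dusp5 and Spred1 (0.53 ± 0.13) rose, and Dusp4 and Irf4 fell. The share called was 19%, against 11.9% of all genes. Its median of -0.22 became 0.09 without sKO DZ replicate 1, the library with high immediate-early genes, and the median of the 8 AP-1 genes moved from -0.26 to 0.25. The calls of Dusp5 and Dusp4 were kept with any 1 library left out. That of Spred1 was lost without any 1 DZ library or either dKO LZ library, and that of Irf4 without any 1 library other than sKO DZ replicate 2 (adjusted p of 0.0574 to 0.209).

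Of 15 genes of MHC class II presentation tested, 10 fell and 0 rose (66.7%, against 5.23% of all genes that fell), with a median of -0.28. The peptide-exchange subunits H2-DMb2 (359 and 357 FPKM in sKO, 259 and 269 FPKM in dKO; -0.44 ± 0.036, adjusted p = 0.00294) and H2-DMb1 (196, 189, 145 and 148 FPKM; -0.39 ± 0.036) fell, as did H2-DMa (-0.45 ± 0.056). Both chains of H2-O, which restrains this exchange, fell: H2-Oa from 93.4 and 94.8 to 55.5 and 58.0 FPKM (-0.72 ± 0.048, adjusted p = 0.00154) and H2-Ob by -0.30 ± 0.051. Ciita, the transactivator of these genes, fell from 78.7 and 75.8 to 56.3 and 60.8 FPKM (-0.39 ± 0.052). The antigen-binding chains H2-Aa (-0.31) and H2-Eb1 (-0.27), the invariant chain Cd74 (-0.28) and the protease Ctss (-0.23) fell less, and H2-Ab1 was not past the threshold (-0.20 ± 0.057, adjusted p = 0.0699). In the fits without dKO DZ replicates 1 and 2 the falls numbered 3 and 4, and without sKO DZ replicates 1 and 2 they numbered 7 and 7. The calls of H2-DMb2, H2-DMb1 and H2-Oa were kept with any 1 library left out, while 7 and 6 were lost without dKO DZ replicates 1 and 2, 3 without either sKO DZ library or either dKO LZ library, and that of Cd74 also without sKO LZ replicate 1 (adjusted p of 0.0506 to 0.218).

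B cell receptor and co-receptor genes fell in part. Of 30 genes of survival and antigen receptor signalling 14 fell and 0 rose (46.7%, against 5.23% of all genes that fell), with a median of -0.19. Siglecg, an inhibitory sialic acid receptor, fell from 146 and 141 to 105 and 103 FPKM (-0.46 ± 0.047, adjusted p = 0.0051). The inhibitory Fc receptor Fcgr2b (-0.33), the adaptor Lat2 (-0.37) and the kinase Syk (-0.30) fell with it. Of 7 general B cell markers 4 fell and 0 rose (57.1%), among them Cd79a (-0.30), Cd22 (-0.30) and Cd79b (-0.24). The 7 summed to 3280 and 3380 FPKM in sKO and 2820 and 2870 FPKM in dKO. Of 10 naive and marginal zone B cell markers, Fcer2a, Cd38, the complement receptor Cr2 (36.5 and 36.9 FPKM, then 23.8 and 23.7 FPKM) and Fcrl1 (85.3 and 88.5, then 61.0 and 59.1 FPKM) fell (40%). All 13 in the data, tested or not, summed to 265 and 261 FPKM in sKO and 176 and 172 FPKM in dKO. The sort took NP-binding GL7+CD38- donor cells, a gate that leaves out naive cells, and the part of any such cells in the falls was not tested. Signalling falls numbered 2 and 1 without dKO DZ replicates 1 and 2 and 8 without sKO DZ replicate 1, and falls of the B cell and of the naive and marginal zone markers 2 and 2 without the latter. The calls of Fcrl1 and Fcer2a were kept with any 1 library left out. Of the 11 falls named, 8 and 9 were lost without dKO DZ replicates 1 and 2, 3 and 2 without sKO DZ replicates 1 and 2, and that of Cd79b also without either dKO LZ library (adjusted p of 0.0509 to 0.193).

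Apoptosis genes of the BCL2 family moved in both directions. Bcl2l11 rose, as above, while Bmf, another pro-apoptotic member, fell from 8.20 and 8.37 to 4.97 and 5.18 FPKM (-0.61 ± 0.062, adjusted p = 0.0051). Of 8 pro-apoptotic members tested, 1 rose, 1 fell and 6 were not called (25% called, against 11.9% of all genes). Of 7 pro-survival members tested, 3 fell and 0 rose (42.9%, against 5.23% of all genes that fell). Bcl2a1a, Bcl2a1b and Bcl2a1d fell by -0.55, -0.52 and -0.49. These are near-identical copies among which reads can be split, so their separate values are uncertain. Mcl1 (187, 195, 178 and 171 FPKM) and Bcl2l1 (5.72, 5.04, 5.67 and 5.25 FPKM) were not past the threshold (adjusted p = 0.0967 and 0.943), and Bcl2 lay below the filter. The call of Bcl2l11 was kept with any 1 library left out; that of Bmf was lost without dKO DZ replicate 1, and the 3 copies were lost without any 1 DZ library or either dKO LZ library, except Bcl2a1a in the latter fits (adjusted p of 0.0523 to 0.167).

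Of 25 memory B cell genes 7 fell and 1, Bach2, rose (median -0.23), and of 17 migration receptors 6 fell and 1, S1pr2, rose (median -0.27). Bach2 is itself the gene floxed in dKO. The shares called were 32% and 41.2%, against 11.9% of all genes. Gpr174, a receptor for lysophosphatidylserine, read 3.31 and 2.78 FPKM in sKO and 0.915 and 0.885 FPKM in dKO (-1.09 ± 0.11, adjusted p = 0.00481). The chemokine receptor Cxcr3 read 2.37 and 1.72 FPKM, then 0.498 and 0.278 FPKM (-1.13 ± 0.15, adjusted p = 0.0094), and Gpr183, which guides B cells to the outer follicle, 1.32 and 1.00, then 0.372 and 0.261 FPKM. Cd38 (-0.61), Mndal (-0.62), Itgb7 (-0.46) and Itgal (-0.25) fell. Of 23 plasma cell genes 3 rose and 5 fell (34.8% called). Hsp90b1, a chaperone of the endoplasmic reticulum, rose by 0.28 ± 0.033, Herpud1 (-0.25 ± 0.038) and Sec11c (-0.32 ± 0.054) fell, and Xbp1 read 70.6, 80.6, 69.7 and 70.9 FPKM (adjusted p = 0.447). Memory falls numbered 1 and 1 without dKO DZ replicates 1 and 2 and 2 without sKO DZ replicate 1, and migration falls 1, 1 and 2. The plasma cell list had 1 rise and 3 falls without sKO DZ replicate 1 and 0 calls without either dKO DZ library. The call of Gpr174 was kept with any 1 library left out, and of the 10 calls given here with values 9 were lost without either dKO DZ library, 5 without either sKO DZ library and that of Itgb7 also without either dKO LZ library (adjusted p of 0.0504 to 0.157).

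GIMAP GTPases, a cluster of genes of lymphocyte survival, fell in 7 of 8 members tested and rose in 0, with a median of -0.53. This was 87.5%, against 5.23% of all genes that fell. Gimap3 fell from 35.1 and 37.1 to 18.5 and 19.5 FPKM (-0.89 ± 0.060, adjusted p = 0.00154) and Gimap6 from 91.5 and 99.1 to 60.1 and 60.3 FPKM (-0.65 ± 0.052, adjusted p = 0.0026). Gimap1, Gimap4, Gimap5, Gimap7 and Gimap8 fell by -0.34 to -0.60. Of 28 interferon-inducible genes 11 fell and 1 rose (42.9% called, against 11.9% of all genes), with a median of -0.23. Besides Gbp2, Gbp4 (-0.48) and Irf7 (-0.55) fell, and Oas1a rose from 0.746 and 0.902 to 1.43 and 1.40 FPKM (adjusted p = 0.0493, lost without any 1 library). Among 25 glycan enzymes St3gal6 rose, and the sialyltransferase St8sia6 (2.95 and 2.95, then 1.1 and 1.28 FPKM, -0.85 ± 0.076) and B3gnt5 were among 6 that fell, with Gcnt1 at -0.30. The share called was 28%. GIMAP falls numbered 3 and 2 without dKO DZ replicates 1 and 2 and 5 without sKO DZ replicate 1, and interferon gene falls 2, 1 and 5. Without any 1 of these 3 libraries the glycan list had 1 rise and 2 falls. The calls of Gimap3, Gimap6, Gbp2, St3gal6, St8sia6 and B3gnt5 were kept with any 1 library left out, while of the 15 named 7 and 9 were lost without dKO DZ replicates 1 and 2, 5 and 4 without sKO DZ replicates 1 and 2 and 3 without either dKO LZ library (adjusted p of 0.0505 to 0.216).

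Of 26 genes of the unfolded protein response and endoplasmic reticulum 5 rose and 2 fell (26.9% called, against 11.9% of all genes; median 0.12), with Canx (0.24) and Hyou1 (0.24) among the rises. Of 24 chromatin regulators 4 rose and 0 fell (16.7%): Uhrf1, Dnmt1, and the Polycomb genes Cbx2, from 4.86 and 5.76 to 8.26 and 7.62 FPKM (0.51 ± 0.097), and Suz12 (0.19 ± 0.041), while Ezh2 was not past the threshold (0.15 ± 0.058, adjusted p = 0.14). Without sKO DZ replicate 1 the first list had 1 rise and 1 fall and the second 2 rises, and without either dKO DZ library both had 0 calls. Of these 6 calls, 6 were lost without either dKO DZ library, 4 and 3 without sKO DZ replicates 1 and 2, and those of Hyou1 and Suz12 also without either dKO LZ library (adjusted p of 0.0523 to 0.196).

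The same genotype contrast in light zone cells compared 4 other libraries. It came from the same fit, in which each gene has 1 estimate of spread for both zones. Calls in the 2 zones are therefore not independent. There 3299 genes passed (31.1%), 1948 higher and 1351 lower. Of the 1258 DZ calls, 1097 were called in the same direction in LZ, which was 87.2% of the DZ calls and 33.3% of the LZ calls. All 25 of the largest DZ rises were called higher in LZ, Mgll by 1.97 and St3gal6 by 1.72, and 24 of the 25 largest falls were called lower. Slfn2 was the exception, with 48.4 and 61.0 FPKM in sKO LZ and 49.4 and 49.1 FPKM in dKO LZ (-0.14), against -0.97 in DZ (difference of -0.83 ± 0.15, adjusted p = 0.291). Batf, lower in dKO DZ, was higher in dKO LZ (36.2 and 35.3, then 42.6 and 45.3 FPKM; 0.29, adjusted p = 0.00981), and the difference between zones was not past the threshold (adjusted p = 0.142). Cd36 rose by 1.13 in DZ and by 0.56 in LZ (difference 0.57 ± 0.067, adjusted p = 0.142). Ccr6, a chemokine receptor of memory precursors, read 0, 0.118, 0 and 0.0639 FPKM in the DZ libraries, and 3.11 and 3.40 FPKM in sKO LZ against 0.848 and 0.696 FPKM in dKO LZ (difference between zones 1.23 ± 0.16, adjusted p = 0.177). In the test of the difference between zones itself, 3 genes passed by limma (0.0283%) and 1232 had an unadjusted p under 0.05. More calls in LZ than in DZ therefore do not show that the effect differed between the zones.

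**Figure D4:**
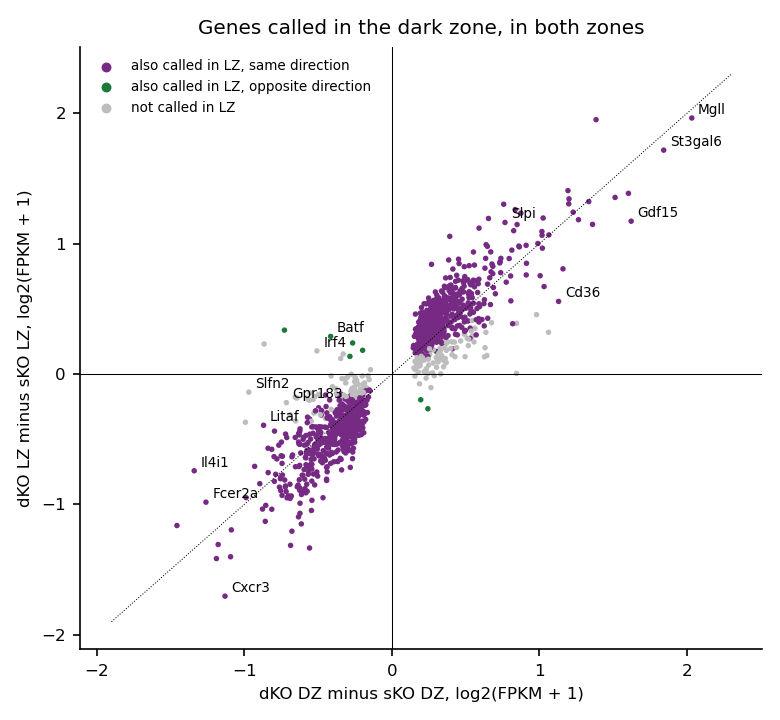
Genes called in DZ, by their dKO minus sKO difference in DZ (horizontal) and in LZ (vertical), both on the log2(FPKM + 1) scale, for 1254 genes without small RNA genes. Of these, 1096 were called in the same direction in LZ, 7 in the opposite direction and 151 were not called in LZ.

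The 3 genes past that test were microRNA genes, whose short transcripts are poorly measured by FPKM. Mir194-1 was listed at 261 and 300 FPKM in sKO DZ and at 0 in the other 6 libraries, and Mir1943 at 152 and 175 FPKM in sKO DZ and at 0 in the other 6. Both reached the filter through the sKO DZ libraries alone, so they could enter only by being high there. Mir3112 was listed at 161 and 92.2 FPKM in sKO DZ, at 119 and 124 FPKM in dKO LZ, and at 0 in dKO DZ and sKO LZ. An exact 0 can be a failed estimate: of 95 genes listed at 0 in 1 DZ library and at 5 FPKM or more in another, 91 were small RNA genes. Their mature sequences (RefSeq, GRCm38.p6) are shown to identify them, with the seed, bases 2 to 8, in capitals; no seed is shared among the 6.
miR-194-5p: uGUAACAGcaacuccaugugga
miR-194-1-3p: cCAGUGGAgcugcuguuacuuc
miR-1943-5p: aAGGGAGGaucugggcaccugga
miR-1943-3p: cAGGUGCCagcuccucccuuc
miR-3112-5p: aCAUAGAAaaggcagucugca
miR-3112-3p: cAGUUUGUcucuucuuugucu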

How the data were processed

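The deposited file is 1 table of FPKM values that the authors made for 23234 gene symbols in 8 libraries, per the file headers. The submitters' processing notes list mm9, TopHat2 2.0.8 and Cufflinks 2.1.1 without options. Libraries came from the NEBNext Ultra RNA kit, per the labels' protocols; strand is not stated, so overlapping genes can share reads. Counts were not analysed here, so a count test was not run, and read depth is unknown.

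Genes at 1 FPKM or more in 2 or more libraries were fitted on log2(FPKM + 1) by limma 3.58.1 (R 4.3.3) with a mean for each of the 4 groups over 8 libraries and a trended prior (4 residual and 2.46 prior degrees of freedom). Tests were 2-sided, adjusted by Benjamini-Hochberg over 10610 genes, with a threshold of 0.05, and were tested on simulated data. There 12 of 50 true changes of 0.3, 37 of 50 of 0.5, 47 of 50 of 1 and 49 of 50 of 2 were recovered. A total of 4 of the 149 calls were false. A gene not past the threshold can therefore still differ, above all where the change is small. Named genes were the 25 largest called changes in each direction whose higher group averaged 5 FPKM or more and whose libraries did not overlap (without antigen receptor segments, small RNA genes and gene models that have no name), plus up to 4 called members of each list by p and the genes of the sort, the deletion and the zones; other list members were chosen after their values were seen. The members, gene lists and tests were chosen with earlier results of these data known. Symbols were matched to RefSeq promoter entries by symbol or a single synonym; these are on GRCm38.p6 and not on mm9. Replicate numbers were not taken as pairs: same-numbered deviations correlated at -0.108 to 0.124. Alternatives changed the pseudocount, filter, scaling or variance prior, added the replicate number as a block, kept only the DZ libraries, left out each library and, added after the data were seen, a fit without small RNA genes. Some genes that the rule names are not reported here.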

Additional observations from a re-analysis of the deposited data

Results flagged for a closer look

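For 3 microRNA genes the genotype difference in DZ differed from that in LZ by limma's test of the interaction, with Benjamini-Hochberg adjustment. Mir194-1 (adjusted p = 1.75e-06) was listed at 261 and 300 FPKM in sKO DZ and at 0 in all other libraries, and Mir1943 (adjusted p = 1.98e-06) at 152 and 175 FPKM in sKO DZ and at 0 in all others. Mir3112 (adjusted p = 1.15e-05) was listed above 0 in both sKO DZ and both dKO LZ libraries and at 0 in the other 4. Mir194-1 and Mir1943 reached the filter through the sKO DZ libraries alone, so their difference follows from how they entered. Groups listed at 0 have no spread, which lowers these p-values, and an exact 0 can be a failed estimate.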

How the results depend on the processing

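With only the 4 DZ libraries in the fit, 649 genes passed, 339 higher and 310 lower in dKO. Leaving out 1 library at a time gave 105 to 1339 calls, 50 to 766 higher and 55 to 573 lower; the lowest values came without dKO DZ replicate 1. The interaction gave 3 to 6 calls when 1 library was left out, 5 with no filter, 5 with a robust prior and 0 without small RNA genes. Upper quartile and median of ratios scaling gave 1271 and 1285 calls, of which 48.8% and 49.1% were higher, against 55.9% without further scaling. The labels' replicate numbers were not shown to pair libraries; with the replicate number as a block 881 genes passed, 477 higher and 404 lower. Of 148 named genes that passed, 44 kept the call in each alternative in which they were fitted (at most 21), 104 lost it without 1 or more libraries, 31 lost it in another alternative and 0 changed sign. Among genes not past the threshold, the difference changed sign without sKO DZ replicate 2 for Cxcr4 (0.02657), Ccnd3 (0.05715), Ccnd2 (-0.0238) and Ccr6 (0.04466). The sign also changed without dKO DZ replicate 1 for Cxcr4 (0.04719), Ccnd2 (-0.04488), Ccr6 (0.008572) and Hhex (0.01731), without sKO DZ replicate 1 for Foxo1 (0.04419) and Hhex (0.04781), without dKO DZ replicate 2 for Foxo1 (0.04436), and under quantile normalization for Hhex (0.0362). With 1 library left out at a time, these differences ranged up to 0.04719 from -0.05542 for Cxcr4, to 0.04436 from -0.05219 for Foxo1, to 0.05715 from -0.1753 for Ccnd3, from -0.04488 to 0.07489 for Ccnd2, from -0.1168 to 0.04466 for Ccr6 and from -0.1126 to 0.04781 for Hhex. The cause was not tested. With 2 libraries a group, leaving 1 out makes the lone library assume the spread of the other groups.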

Other observations

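Of the 1258 genes called in DZ, 153 were not called in LZ, 85 higher and 68 lower in dKO, and 8 were called in opposite directions in the 2 zones. Besides Batf and Mir3112 the latter were 1700066J24Rik (-0.73 in DZ, 0.34 in LZ), Clic4 (-0.28 and 0.14), Eci1 (-0.27 and 0.24), Pdia4 (-0.20 and 0.18), BC031353 (0.24 and -0.27) and Slc25a45 (0.20 and -0.20). By limma the interaction of these 6 had adjusted p of 0.207 to 0.291. Among gene families grouped by the start of the symbol, after the values were seen, 7 of 10 Mcm genes rose and 0 fell (median 0.30), and 7 of 21 Nup genes rose and 0 fell (median 0.17). These were 70% and 33.3%, against 6.63% of all genes that rose. Of 8 Anxa genes 3 fell and 0 rose (median -0.27), and of 20 Gpr genes 6 fell and 0 rose. These were 37.5% and 30%, against 5.23% of all genes that fell. Snord96a, a small nucleolar RNA gene, was at 1123 and 1160 FPKM in sKO DZ and at 2323 and 2123 FPKM in dKO DZ (0.96, adjusted p = 0.0159 by limma).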
